A study of Mus musculus with 30 samples.

Results

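Replication-dependent histone genes were followed across 30 nuclear RNA-seq libraries of mouse embryonic stem cells (mESCs). Members were chosen by their GENCODE symbol, as genes of the Hist1 to Hist4 series or their newer H1f, H2ac, H2bc, H3c and H4c names, a rule that uses no measured value. This gave 70 of the 55401 genes in the count tables. They comprised 6 H1, 20 H2A, 19 H2B, 12 H3 and 13 H4 genes. By symbol, 56 belonged to the Hist1 series on chromosome 13, 10 to Hist2 on chromosome 3 and 3 to Hist3 on chromosome 11. Hist4h4 lay on chromosome 6. Within the Hist1 series Hist1h2al lay apart from the others, at chr13:51202727-51203065. The annotation types 67 of the 70 as protein coding and Hist1h2aj, Hist1h2al and Hist3h2bb-ps as pseudogenes.

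H2A, H2B, H3 and H4 are the core histones around which DNA is wrapped in the nucleosome, and H1 is the linker histone that binds where DNA enters and leaves it. Most of their genes lack introns and are transcribed mainly when DNA is replicated, under the coactivator NPAT. Their mRNAs typically end just after a conserved stem-loop in place of a poly(A) tail, and the stem-loop is bound by SLBP, which directs processing of the pre-mRNA. Replication-independent histones, such as the H2A.Z that the SRCAP complex places in nucleosomes in exchange for H2A, come from other genes.

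The study depleted SRCAP, the catalytic subunit of that complex, and compared RNA before and after. CGR8 is the parental mESC line. SYAT cells derive from a single homozygous CGR8 clone with YPet-AID knocked into both Srcap alleles. That clone was transduced with a lentivirus expressing OsTir1 under the EF1a promoter, and cells that lost YPet under IAA were sorted. In SYAT cells 500 µM IAA degrades the SRCAP protein, whereas CGR8 cells carry no degron. SYAT cells were compared as controls and after 2, 4, 6 and 8 h of IAA, and CGR8 cells as controls and after 4 h. EG1 and LG1 are early and late G1 fractions of SYAT cells that also carried a mitotic degron fused to mCherry, sorted for low Hoechst and for low (EG1) or high (LG1) mCherry, as controls or after 1 h of IAA. The wtSRCAP and cdSRCAP lines (SRCAPwt and SRCAPcd in the labels) are 1 clone each of SYAT cells that expressed doxycycline-inducible SRCAP-mCherry, wild type or catalytically dead. Both received doxycycline for 24 h and were compared with and without 4 h of IAA. Both were also sorted for matched, high mCherry signal before RNA was taken. All cells grew in serum with LIF, controls received the OsTir1 inhibitor auxinole, and each of the 15 groups had 2 libraries from separately cultured and treated duplicates. IAA acts on the protein, so Srcap RNA does not check the degron. Its log2 difference under IAA lay between -0.09 and 0.32, with SEs of 0.12 to 0.20.

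A 16-base stem-loop with a 6-base stem and a 4-base loop was found in the transcripts of 44 of the 70 histone genes (GENCODE vM21), against 35 other genes, or 0.0632% of those searched. The forms are shown because they are the processing signal that sets these mRNAs apart. Capitals mark the paired stem, and the number in each line is the count of genes with that form.
Form in 26 genes, among them Hist1h1c, Hist1h2ac, Hist1h2be and Hist1h3d: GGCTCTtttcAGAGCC
Form in 7 H4 genes, among them Hist1h4d and Hist1h4n: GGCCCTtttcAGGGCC
Form in 6 genes, among them Hist1h1t, Hist1h2bk and Hist1h3e: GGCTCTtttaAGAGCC
Form in 2 H4 genes, Hist1h4i and Hist2h4: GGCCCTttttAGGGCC
Form in 2 H4 genes, Hist1h4b and Hist1h4j: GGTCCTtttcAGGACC
Form in Hist2h2ac: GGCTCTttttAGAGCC
The stem-loop was not found in the annotated transcripts of the other 26 genes, and this says only that these letters are not in those annotated transcripts.

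Promoters differed by histone class. In RefSeq windows of 300 bases (GRCm38.p6, 250 before to 50 after the start), 61 histone genes matched. The octamer ATTTGCAT, searched on both strands, was present in 7 of 18 H2A and 6 of 16 H2B promoters and in none of the H1, H3 or H4 promoters, against 1.74% of all 32851 promoters. CCAAT was present in 52 of 61, with 3 of 12 among H4, against 37.4% of all promoters. TATAAA was in 34 of 61 against 13.6%, AAACACA in 4 of 5 H1 promoters against 7.18%, and GGTCC in 11 of 12 H4 promoters against 45.5%. All 10 divergent gene pairs whose starts lay close together paired an H2A with an H2B gene. The windows of such pairs overlap, so the same motif can count for both genes. Both windows held an octamer for Hist1h2ae with Hist1h2bg, Hist1h2ah with Hist1h2bk, and Hist1h2ba with Hist1h2aa.

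One such pair is printed because both of its genes had the smallest p of the histone genes under prolonged IAA. Hist1h2ba (ENSMUSG00000050799.3, chr13:23933773-23934156, minus strand) and Hist1h2aa (ENSMUSG00000060081.1, chr13:23934462-23934851, plus strand) encode the testis-enriched variants TH2B and TH2A. Each is a single-exon gene. The 280 bases between their RefSeq starts, chr13:23934157-23934436 of GRCm38.p6 on the plus strand, are given with matches to the TATA box, the CCAAT box and the octamer on either strand in capitals.
Hist1h2ba to Hist1h2aa: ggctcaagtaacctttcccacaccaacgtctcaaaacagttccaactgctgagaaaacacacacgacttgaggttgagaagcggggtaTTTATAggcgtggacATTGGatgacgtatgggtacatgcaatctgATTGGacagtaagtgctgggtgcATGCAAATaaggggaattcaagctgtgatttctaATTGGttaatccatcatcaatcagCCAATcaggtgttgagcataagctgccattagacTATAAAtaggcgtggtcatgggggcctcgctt
The stretch holds 4 CCAAT boxes, 1 octamer at 117 bases from the Hist1h2aa start, and a TATA match on each strand, at 89 bases from the Hist1h2ba start and 27 bases from the Hist1h2aa start.

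Exon counts summed to 12236493 to 60214521 per library, and all values below are exon CPM, a gene's exon counts scaled by the exon total of its library. Marker genes of ES cells were high in every library, with 1833 to 4977 CPM summed over 9 genes, while 6 fibroblast feeder markers summed to 5.29 to 48.6 CPM, 6 primitive endoderm markers to 5.31 to 25.9, 3 neural markers to 38.5 to 164.5 and 3 trophoblast markers to 0.602 to 4.19. In 3 libraries GC-rich genes were raised and fewer genes were detected. The slope of a library's log2 CPM on gene GC content, relative to the mean of its table, was 0.327 log2 units per 10% GC in replicate 2 of SYAT at 6 h of IAA, 0.313 in replicate 1 of wtSRCAP with IAA and 0.170 in replicate 1 of CGR8 control. The other 27 libraries lay between -0.181, in replicate 2 of CGR8 with IAA, and 0.091. That CGR8 library lay about as far below its table mean as control replicate 1 lay above it. Which of them was unusual cannot be told from these slopes. The 3 libraries with raised slopes had H1 to H2B ratios of 4.23, 6.15 and 3.27. Ratios above 3.27 also occurred without a raised slope, at 4.19 in replicate 1 of cdSRCAP control (slope -0.0104) and 3.35 in replicate 1 of wtSRCAP control (slope -0.039). The ratios are not centred on their table as the slopes are, so slopes cannot be compared between tables.

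Histone transcripts made up 0.288% to 1.28% of exon counts. The gene with the highest mean over all libraries was the H1 gene Hist1h1a, with 637 CPM. Next came Hist1h4d with 487, Hist1h1c with 461, Hist1h1d with 440, Hist1h1b with 357 and Hist1h1e with 349 CPM, followed by Hist1h4a with 337, Hist1h3e with 336, Hist1h4k with 309 and Hist1h4h with 288 CPM. The order differed between populations, and in wtSRCAP and cdSRCAP controls Hist1h1d had the highest means, 497 and 566 CPM, against 409 and 483 for Hist1h1a. H1 took 5 and H4 took 4 of the 10 highest places, and the highest H2A and H2B genes were Hist1h2ak with 136 and Hist1h2bc with 140 CPM. Per kilobase of exon the order changed, with mean levels of 991 CPM per kb for Hist1h4k, 860 for Hist1h1a and 703 for Hist1h4f.

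In all 30 libraries 9 genes had 0 counts: Hist2h2aa1, Hist2h2aa2, Hist1h2br, Hist1h2bq, Hist2h3b, Hist2h3c1, Hist1h2ao, Hist1h2ap and Hist2h2bb. Hist1h4m had 10 counts in all. These genes have near-identical copies. At most 12.4% of the 75-base stretches of these 9 genes were unique among annotated transcripts, against a median of 55.96% over all 70 genes. How reads with several matches were treated is not given in the sources used here, so a 0 does not show that a gene was silent, and levels of single copies are uncertain. In 32 genes less than 50% of stretches were unique.

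**Figure D1:**
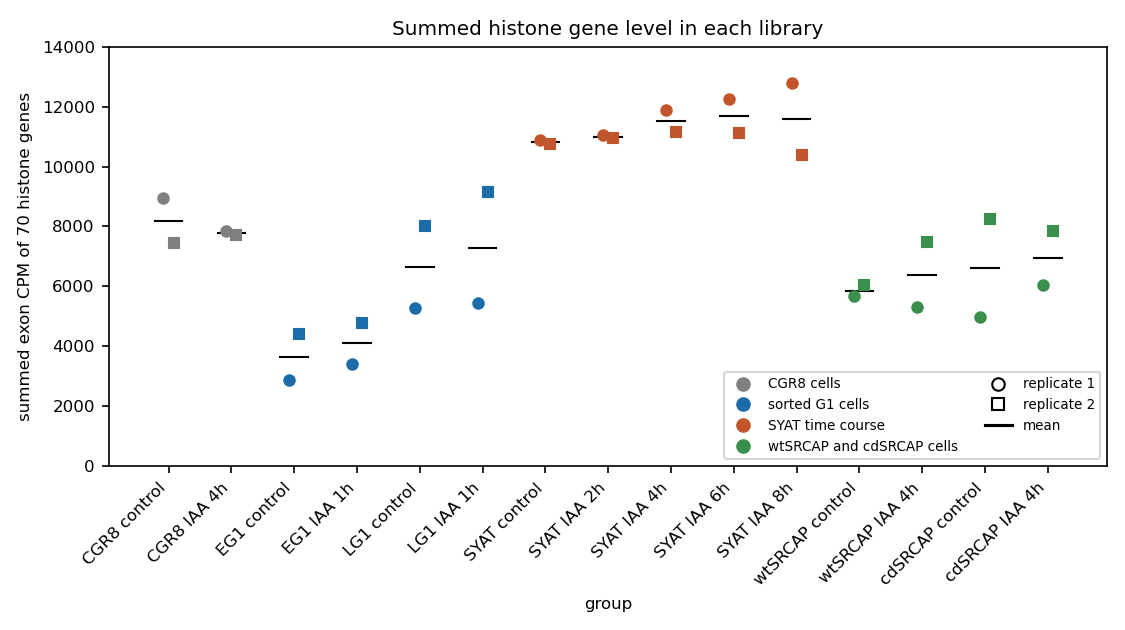
Summed exon CPM of the 70 histone genes (vertical axis, linear from 0) in each of 30 libraries, by group (horizontal axis). Circles are replicate 1, squares replicate 2, lines the mean of both and colours the 4 count tables. Both LG1 libraries lie above both EG1 libraries in control cells (5271 and 8030 against 2879 and 4404) and after 1 h of IAA.

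The summed histone level differed between populations more than with IAA. It was 2879 and 4404 CPM in EG1 control cells, 5271 and 8030 in LG1 control cells and 10898 and 10770 in unsorted SYAT control cells. CGR8 controls had 8946 and 7452 CPM, wtSRCAP controls 5669 and 6043 and cdSRCAP controls 4978 and 8246. The G1-sorted libraries, the unsorted SYAT libraries and the mCherry-sorted rescue libraries (wtSRCAP and cdSRCAP) belong to separate tables. Differences between tables were not tested. In bulk samples more cells with histone transcripts and more transcripts per cell cannot be told apart.

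Late G1 was compared with early G1 to ask how the histone genes differed along G1. Levels were higher in LG1 for nearly every gene, by about 2-fold, but none passed the call in the fit that treats the replicates of a group as unpaired. In control cells 58 of the 60 histone genes tested were higher in LG1, with a median log2 difference of 0.99 (1.99-fold) against -0.000844 over all 21020 genes. The edgeR quasi-likelihood test with Benjamini-Hochberg adjustment called 0 of 60 (adjusted p under 0.05 and a log2 difference over 0.5 either way) where it called 0.0% of all genes. DESeq2 also called 0 histone genes. An unadjusted p under 0.05 was reached by 28, all higher, against 0.709% of all genes higher, and by 42 in DESeq2 (0.818% of all genes). Both LG1 libraries lay above both EG1 libraries for 46 of 60 genes (76.7%), against 5.91% of all genes. The calls depended on the fit. With replicate number as a block, edgeR called 53 of 60 histone genes, all higher (0.723% of all genes). Without the low-count filter it called 45 of 61, all higher (0.19% of all genes). Whether replicate numbers mark a shared sort or day is not in the labels. The 10 genes not tested were Hist1h4m and the 9 at 0.

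After 1 h of IAA the same comparison gave similar values. Of 60 genes 57 were higher in LG1, with a median log2 difference of 1.00. edgeR called 0 (0.0% of all genes) and DESeq2 called 0. Unadjusted p was under 0.05 for 25, all higher (1.42% of all genes higher), and for 36 in DESeq2 (1.53% of all genes). Both LG1 libraries were above both EG1 libraries for 42 (70%), against 6.68% of all genes. The replicate block called 49 of 60 (1.01% of all genes) and the fit without the low-count filter 41 of 61 (0.256%), all higher. All 4 LG1 libraries lay above all 4 EG1 libraries for 38 of 60 (63.3%), against 1.26% of all genes, and the reverse held for 1 gene, Hist2h2be (1.67%), against 4.53%.

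In all 4 sorted groups replicate 2 had the higher summed histone level. The sums were 3642 ± 1078 CPM (SD, n = 2) in EG1 control and 6651 ± 1951 in LG1 control, and 4097 ± 977 and 7286 ± 2627 after IAA. These SDs include the difference between replicates 1 and 2 that all 4 groups show. Leaving out EG1 control replicate 2 moved the control median to 1.5, and leaving out LG1 IAA replicate 2 moved the IAA median to 0.42.

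**Figure D2:**
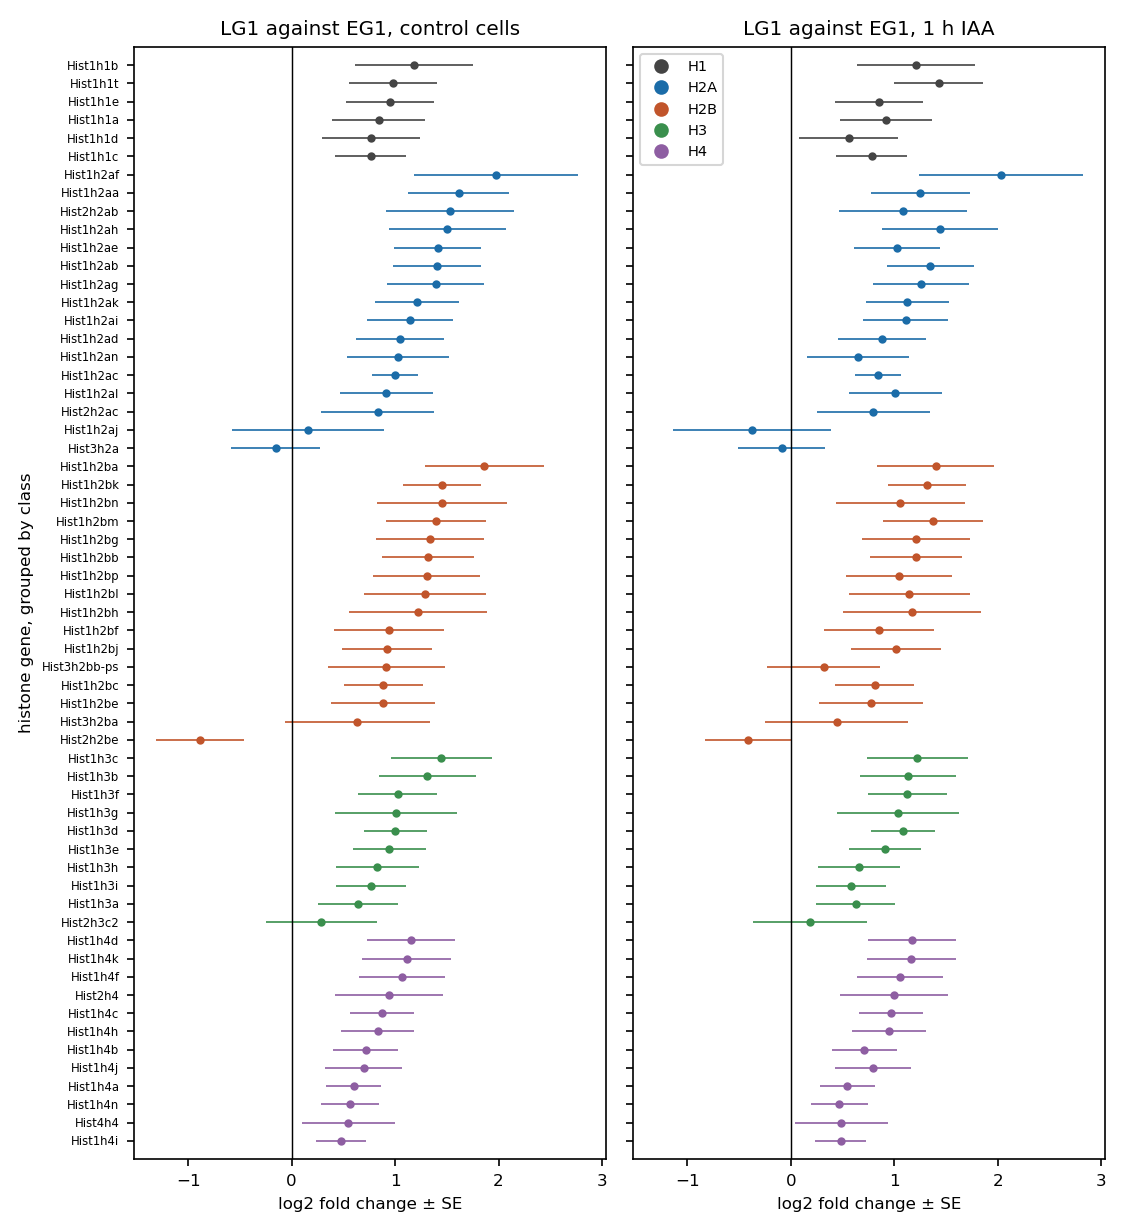
Log2 fold change (horizontal axis) with its SE for each of 60 histone genes (vertical axis, grouped and coloured by class) in LG1 against EG1, in control cells (left) and after 1 h of IAA (right). In control cells 58 of 60 points lie right of 0, and Hist2h2be and Hist3h2a lie left of it.

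In control cells the core histones H2A and H2B had the larger differences. Medians in control cells were 1.26 for 16 H2B genes, 1.18 for 16 H2A genes, 0.97 for 10 H3 genes, 0.89 for 6 H1 genes and 0.77 for 12 H4 genes. After IAA the H2A and H2B medians were 1.06 and 1.05 and that of H4 was 0.87. Genes whose transcript ended within 200 bases of the stem-loop had a median of 1.07 (n = 21), and those running further 0.88 (n = 17). Genes with no stem-loop found in their annotated transcripts had a median of 1.07 (n = 22). These class values are descriptions, with no test between classes.

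The smallest p in control cells was that of the H2A gene Hist1h2ac (chr13:23681467-23683948, minus strand). It had 15.3 and 16.4 CPM in EG1 control and 29.7 and 30.5 in LG1 control, with 18.4 and 18.2 in EG1 IAA and 25.8 and 35.7 in LG1 IAA. The fractions did not overlap in either state. Its log2 difference was 1.00 (SE 0.22, edgeR adjusted p = 0.9998) in control cells and 0.84 (SE 0.22) after IAA. The annotation also places Gm24991 and, on the opposite strand, Gm44350 over this gene. Such overlaps were annotated for 26 of the 70 histone genes, among them every H2A gene.

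Next came Hist1h2bk and Hist1h2ae, which encode H2B and H2A. Hist1h2bk had 33.3 and 52.8 CPM in EG1 control against 93.2 and 131 in LG1 control. Its log2 difference was 1.46 (SE 0.38) in control cells and 1.31 (SE 0.38) after IAA. Hist1h2ae had 14.9 and 24.2 CPM against 41.0 and 57.6, a log2 difference of 1.41 (SE 0.42). Both genes were separated between fractions, with replicate 2 above replicate 1 in each. After IAA Hist1h3d, an H3 gene, was also among the 3 smallest p, at 44.1 and 58.7 CPM in EG1 and 86.0 and 119 in LG1 (log2 difference 1.09, SE 0.30).

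Among abundant genes, Hist1h1a had 233 and 374 CPM in EG1 control and 400.4 and 630.0 in LG1 control, a log2 difference of 0.84 (SE 0.45). Hist1h4d, an H4 gene, had 150.2 and 242 against 317 and 509 CPM, a log2 difference of 1.15 (SE 0.42). The largest difference was in the H2A gene Hist1h2af, with 3.86 and 15.3 against 25.8 and 46.0 CPM (log2 1.98, SE 0.79), whose EG1 replicates differed widely. The 2 testis-type genes were among the larger differences too. Hist1h2ba had 2.14 and 4.64 CPM in EG1 control and 8.05 and 15.2 in LG1 control (log2 1.86, SE 0.58). Hist1h2aa had 2.17 and 3.85 against 6.99 and 10.5 CPM (log2 1.62, SE 0.49).

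In LG1 control cells 2 genes had lower values, neither by the test. Hist2h2be, an H2B gene of the Hist2 cluster (chr3:96221119-96223738), had 0.637 and 0.754 CPM in EG1 control against 0.355 and 0.354 in LG1 control, a log2 difference of -0.89 (SE 0.43). Hist3h2a had 2.85 and 1.35 against 2.18 and 1.41 CPM, and its groups overlapped. Hist2h2be was separated between all EG1 and all LG1 libraries, at a level near 1 CPM.

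Genes of related pathways were taken from lists chosen by function, and no difference between a list and the histone genes was tested. None was called in either state. All 30 G1/S genes tested were higher in LG1, with medians of 0.32 in control and 0.42 in IAA cells, below the histone medians. Of 26 G2/M genes 18 were lower in control cells (median -0.28, range -0.93 to 1.22), and 5 lower and 2 higher had an unadjusted p under 0.05. The 29 histone pre-mRNA processing and transcription genes had a median of 0.05, and none had an unadjusted p under 0.05. Slbp, the stem-loop binding protein, had 62.6 and 88.1 CPM in EG1 control and 68.7 and 83.4 in LG1 control (log2 0.09, SE 0.27). Npat had 63.1 and 81.5 against 74.8 and 84.1 CPM (log2 0.21, SE 0.23), and both genes overlapped between fractions. Medians were 0.10 for 22 histone chaperones and 0.02 for 12 replication-independent histones. The latter ranged from -0.74 (SE 0.31) for Cenpa, the centromeric H3 variant, with 51.6 and 72.9 CPM in EG1 control against 28.4 and 42.1 in LG1 control, to 0.92 (SE 0.55) for H2afx, the H2A.X gene, with 89.0 and 177 against 176 and 302 CPM. After IAA they were -0.80 and 1.16. The lists overlap the G1/S list in Slbp and Chaf1b.

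Next, 1 h of IAA was compared with control within each G1 fraction. In EG1, 57 of 60 histone genes were higher with IAA, with a median log2 difference of 0.23, and in LG1 54 were higher, with a median of 0.17. edgeR called 0 in EG1 (0.0% of all genes) and 0 in LG1 (0.0%), and DESeq2 called 0 in both. A looser rule (unadjusted p under 0.05 and a log2 difference over 0.25 either way) also took 0 histone genes in this unpaired fit. It took 1.22% of all genes in EG1 and 1.02% in LG1. With replicate number as a block, the rule took 25 of 60 histone genes in EG1, all higher (6.04% of all genes). In LG1 it took 9 of 60, all higher (4.2% of all genes). The labels do not say that a number marks a shared sort or day. DESeq2 had 0 with an unadjusted p under 0.05. Summed levels were 2879 and 4404 CPM in EG1 control and 3407 and 4788 with IAA, and 5271 and 8030 in LG1 control and 5428 and 9144 with IAA, so the groups overlapped in both fractions.

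The genes with the smallest p in EG1 were Hist3h2bb-ps with a log2 difference of 0.86 (SE 0.57), Hist1h2ae with 0.55 (SE 0.42) and Hist1h2ac with 0.25 (SE 0.22). In LG1 they were Hist2h2be with 0.48 (SE 0.45), Hist3h2a with 0.44 (SE 0.43) and Hist1h1t with 0.39 (SE 0.41). Hist3h2bb-ps, a processed pseudogene of the Hist3 cluster, had 0.825 and 1.63 CPM in EG1 control against 1.91 and 2.43 with IAA. The response did not differ detectably between fractions. For the interaction edgeR called 0 of 60 (0.0% of all genes), none had an unadjusted p under 0.05 in edgeR or DESeq2, and the median was -0.06. Its smallest p were those of Hist2h2be (0.48, SE 0.60), Hist3h2bb-ps (-0.60, SE 0.79) and Hist1h1t (0.45, SE 0.60). The 2 IAA medians changed sign when single libraries were left out. In EG1 the median turned to -0.10 without control replicate 1 and -0.14 without IAA replicate 2, and was 0.72 without control replicate 2. In LG1 it turned to -0.12 without control replicate 1 and -0.33 without IAA replicate 2. Replicate 2 was the higher in every sorted group, and leaving out 1 library unbalances the replicates compared. With replicate number as a block, 58 of 60 genes were higher in EG1 (median 0.24) and 54 in LG1 (median 0.16).

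The SYAT time course asked what longer depletion of SRCAP did. The testis-type genes Hist1h2ba and Hist1h2aa had lower values at every time, short of the call, with folds of 0.425 and 0.420 (Hist1h2ba) and 0.491 and 0.50 (Hist1h2aa) at 6 and 8 h. Median log2 differences over 60 genes were 0.05 at 2 h, 0.15 at 4 h, 0.05 at 6 h and 0.13 at 8 h. They moved with single libraries. Without replicate 1 of the IAA group they were -0.01 at 2 h, 0.01 at 4 h, -0.28 at 6 h and -0.19 at 8 h, and without its replicate 2 they were 0.07, 0.27, 0.30 and 0.38. Summed levels were 10898 and 10770 CPM in controls, 11042 and 10966 at 2 h, 11910 and 11153 at 4 h, 12267 and 11137 at 6 h and 12798 and 10379 at 8 h. Both sums at 2, 4 and 6 h lay above both controls, and those at 8 h lay on either side. The 4 comparisons share their 2 control libraries.

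By exon CPM, both libraries lay above both controls for 11 of 60 histone genes at 2 h (18.3%, against 14.9% of all genes), 30 at 4 h (50%, against 17.8%), 13 at 6 h (21.7%, against 13%) and 5 at 8 h (8.33%, against 18.2%). Both lay below for 4 at 2 h (6.67%, against 22.8%), 3 at 4 h (5%, against 25.4%), 4 at 6 h (6.67%, against 31.7%) and 3 at 8 h (5%, against 25.4%). Hist1h2ba and Hist1h2aa were among the lower genes at each time and Hist1h1t at 4, 6 and 8 h. The 30 higher at 4 h included Hist1h2ak (174 and 174 CPM in controls, 186 and 190 at 4 h) and Hist1h2ai (101 and 97.8 against 121 and 113), chosen after their values were seen.

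edgeR called 0 histone genes at each time, against 0.0% of 19205 genes at 2 h, 0.0% at 4 h, 0.0677% at 6 h and 0.00521% at 8 h. Unadjusted p was under 0.05 for 0 histone genes at 2 h and 0 at 4 h. At 6 h it was for 7 higher (7.93% of all genes higher) and 2 lower (8.21% lower), and at 8 h for 0 higher and 3 lower (8.44% lower). The 7 of 60 were above, and the 2 and 3 of 60 below, the share over all genes. DESeq2 called 0 at 2 h and 4 h, 3 at 6 h (Hist1h2aa, Hist1h2ba and Hist1h1c) and 2 at 8 h (Hist1h2aa and Hist1h2ba). These are 5% of histone genes against 3.37% of all genes at 6 h, and 3.33% against 2.32% at 8 h.

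Hist1h2ba, which encodes TH2B, had 20.9 and 20.02 CPM in controls, 15.2 and 16.1 at 2 h, 15.4 and 13.6 at 4 h, 10.5 and 5.19 at 6 h and 8.83 and 8.08 at 8 h. Both controls lay above all 8 IAA libraries. Log2 differences were -0.36 at 2 h (SE 0.25), -0.46 at 4 h (SE 0.26), -1.23 at 6 h (SE 0.26, edgeR adjusted p = 0.0757) and -1.25 at 8 h (SE 0.26, adjusted p = 0.0899). DESeq2 gave adjusted p = 0.00194 at 6 h and 0.00184 at 8 h.

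Hist1h2aa, its divergent neighbour, encodes TH2A. It had 16.1 and 16.7 CPM in controls, 14.2 and 14.7 at 2 h, 12.7 and 12.5 at 4 h, 8.04 and 6.29 at 6 h and 7.70 and 8.53 at 8 h. The order of the groups was like that of Hist1h2ba, again with both controls above all IAA libraries. Log2 differences were -0.16 at 2 h (SE 0.17), -0.35 at 4 h (SE 0.17), -1.03 at 6 h (SE 0.18, edgeR adjusted p = 0.0615) and -0.999 at 8 h (SE 0.17, adjusted p = 0.0699). The annotated Gm44344 overlaps Hist1h2aa on the opposite strand, and whether counting used strand is not given.

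These were the 2 of 60 histone genes (3.33%) with both controls above all 8 IAA libraries, a pattern that 11.7% of all genes tested showed. No histone gene had all 8 IAA libraries above both controls, against 3.71% of all genes. Without replicate 2 of the 6 h group, the library with the raised GC slope, the 6 h differences were -0.88 (edgeR adjusted p = 0.16) for Hist1h2ba and -0.95 (0.119) for Hist1h2aa.

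**Figure D3:**
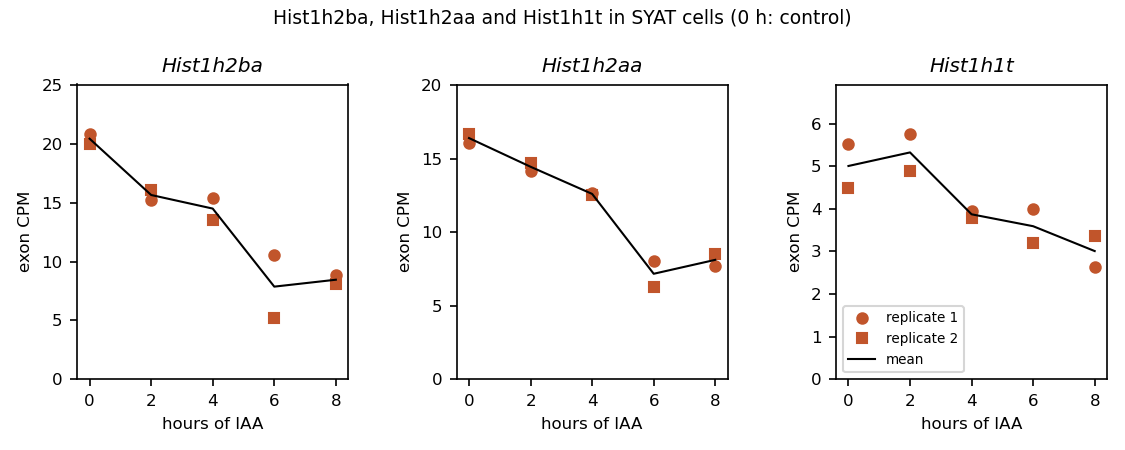
Exon CPM (vertical axes, linear from 0) of Hist1h2ba, Hist1h2aa and Hist1h1t in the 10 SYAT libraries against hours of IAA (horizontal axis, 0 for controls). Circles and squares are replicates 1 and 2 and the line joins the means. Both controls of Hist1h2ba (20.9 and 20.02) and of Hist1h2aa (16.1 and 16.7) lie above all IAA libraries.

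Hist1h1t encodes the testis-enriched linker histone H1t. It had 5.52 and 4.50 CPM in controls, 5.77 and 4.89 at 2 h, 3.95 and 3.8 at 4 h, 3.99 and 3.20 at 6 h and 2.64 and 3.38 at 8 h. The controls overlapped the 2 h libraries and lay above those at 4, 6 and 8 h. Its log2 difference was -0.34 at 4 h (SE 0.26) and -0.72 at 8 h (SE 0.26, edgeR adjusted p = 0.265).

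Hist2h3c2, an H3 gene of the Hist2 cluster, had the smallest p at 2 h, with 1.74 and 2.54 CPM in controls and 0.917 and 1.69 at 2 h (log2 -0.68, SE 0.46). The groups were close to overlap at these low levels. Hist1h1c, a somatic H1 gene, had 518 and 459 CPM in controls and 593 and 1052 at 6 h. The high value was that of the library with the raised GC slope. Its log2 difference of 0.95 (SE 0.27, edgeR adjusted p = 0.145) was 0.35 without that library.

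At 6 h the same library set the spread of whole classes. Hist1h4n had 8.81 CPM in it and 126 in the other 6 h library, and H1 genes made up 36.4% of its histone counts against 23.8%. H2B genes made up 8.6% against 17.5%. With only this library kept at 6 h edgeR called 22 histone genes (36.7%) against 15.4% of all genes, and with only the other kept it called 0. The part of GC content in these differences was not tested.

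**Figure D4:**
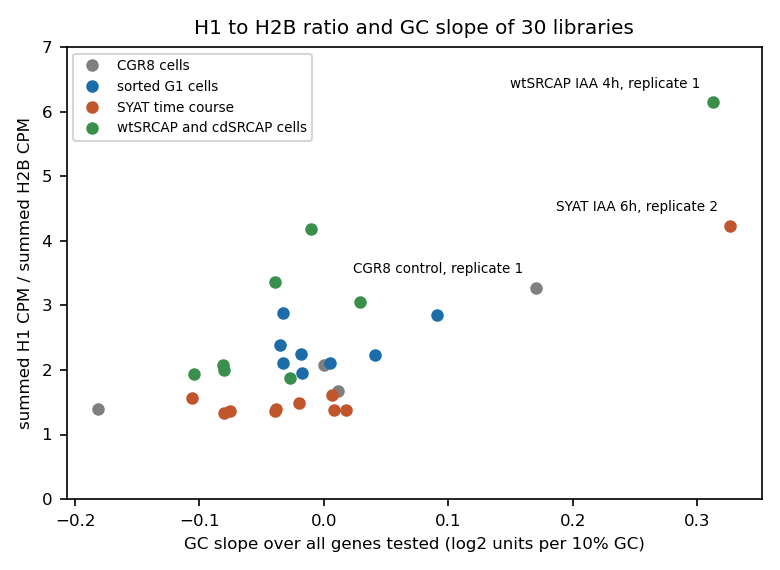
Ratio of summed H1 to summed H2B CPM (vertical axis) against the GC slope over all genes tested (horizontal axis, log2 units per 10% GC) in 30 libraries, coloured by count table. The 3 named libraries have GC slopes of 0.327, 0.313 and 0.170 and H1 to H2B ratios of 4.23, 6.15 and 3.27, and ratios of 4.19 and 3.35 occur at slopes of -0.0104 and -0.039. Slopes are relative to the mean of each table and cannot be compared between tables. The points share depth and table, and no test was made.

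CGR8 cells, which carry no degron, were given IAA for 4 h as a control for the compound. The H2B genes were mostly higher and the H1 genes mostly lower with IAA, and no histone gene was called. Class medians were 0.54 for 16 H2B genes (15 higher), 0.12 for 10 H3 genes, 0.01 for 15 H2A genes, -0.17 for 12 H4 genes and -0.30 for 6 H1 genes. Over the 59 genes tested the median was 0.09. edgeR called 0 histone genes, against 0.00988% of 20250 genes, and DESeq2 called 4 (6.78%) against 0.691% of all genes. Unadjusted p was under 0.05 for 18 higher (5.04% of all genes higher) and 3 lower (4.12% lower), and 11 of the 18 were H2B genes. The GC slopes were 0.170 and -0.000126 in the 2 controls and 0.011 and -0.181 with IAA, and their part in these differences was not tested.

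The H4 gene Hist1h4n had 6.73 and 9.71 CPM in CGR8 controls and 20.9 and 33.1 with IAA, without overlap. Its log2 difference was 1.67 (SE 0.25, edgeR adjusted p = 0.280), and DESeq2 gave an adjusted p of 1.67e-07. Only 16.6% of its 75-base stretches were unique. Hist1h2be had 47.6 and 73.1 CPM against 100.7 and 128 (log2 0.88, SE 0.19), and Hist1h2bm had 29.99 and 48.7 against 67.7 and 85.8 (log2 0.92, SE 0.21). These H2B genes also did not overlap between groups. Left-out libraries moved the count widely. Without control replicate 1, the library with the GC slope of 0.170, edgeR called 5 histone genes (0.734% of all genes). Without control replicate 2 it called 22, of which 11 were higher and 11 lower (10.9% of all genes), without IAA replicate 1 it called 1 (0.156%) and without IAA replicate 2 it called 0 (0.0138%).

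The testis-type genes had their larger SYAT differences at 6 and 8 h, from higher control levels. At 4 h of IAA, the only time taken in CGR8, they showed no lower level. Hist1h2ba had 3.27 and 5.15 CPM in controls and 5.76 and 7.91 with IAA (log2 0.65, SE 0.28, edgeR adjusted p = 0.544). Hist1h2aa had 4.25 and 4.67 against 4.34 and 5.41 CPM, and its groups overlapped.

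The wtSRCAP and cdSRCAP cells asked whether added SRCAP, active or catalytically dead, altered the response to 4 h of IAA. No histone gene was called in any of the 5 comparisons. Of 59 genes tested 51 were higher with IAA in wtSRCAP cells (median 0.22) and 53 in cdSRCAP cells (median 0.16). Both directions changed when single libraries were left out, and replicate 2 had the higher summed level in each of these groups. With replicate number as a block, 42 genes were higher in wtSRCAP cells (median 0.18) and 53 in cdSRCAP cells (median 0.20). The wtSRCAP median was 0.56 without IAA replicate 1, the library with the GC slope of 0.313, and -0.18 without IAA replicate 2. The cdSRCAP median was -0.25 without control replicate 1, 0.78 without control replicate 2 and -0.07 without IAA replicate 2. edgeR called 0 in wtSRCAP cells (0.00523% of 19111 genes), 0 in cdSRCAP cells (0.0%), 0 between controls (0.0%), 0 between IAA groups (0.00523%) and 0 for the interaction (0.0%). DESeq2 called 0 in all 5. Unadjusted p was under 0.05 in edgeR for 1 histone gene in wtSRCAP cells (7.4% of all genes) and for 0 in the other comparisons, and in DESeq2 for 2 (6.95% of all genes) and 0.

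In wtSRCAP cells the smallest p was that of Hist1h1c, with 469 and 350.1 CPM in controls and 747 and 466 with IAA. The groups overlapped by a narrow margin, and the highest value was in the library with the GC slope of 0.313. Its log2 difference was 0.79 (SE 0.30, edgeR adjusted p = 0.651). Hist1h1a followed with 427 and 392 against 528 and 467 CPM (log2 0.48, SE 0.24), the 528 in that same library. Hist3h2a was at 0 counts, which allows up to 0.201 CPM, and 0.373 CPM in controls and at 1.39 (the same library) and 0.417 CPM with IAA.

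In cdSRCAP cells Hist1h2aa had 3.08 and 3.58 CPM in controls and 1.40 and 2.07 with IAA, without overlap (log2 -0.87, SE 0.41, edgeR adjusted p = 0.8998). In wtSRCAP cells it had 2.21 and 1.96 against 2.04 and 2.28 CPM, and the interaction was -1.11 (SE 0.58, edgeR adjusted p = 1.0). Hist1h2ba was low in these clones, at 1.14 and 2.19 CPM in wtSRCAP controls, 0 (in the library with the GC slope of 0.313, where a 0 allows up to 0.245 CPM) and 3.00 with IAA, 1.38 and 3.09 in cdSRCAP controls and 2.23 and 2.94 with IAA. At these levels a difference such as that in SYAT cells was not detectable, with SEs of 1.02 and 1.01 on its log2 differences of 0.05 and 0.25. Hist2h2be (log2 1.16, SE 0.82) and Hist3h2bb-ps (0.93, SE 0.74) came next in cdSRCAP cells.

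Between the lines, differences were small against their errors. The median was 0.13 between controls and 0.08 between IAA groups, and left-out libraries moved them from -0.51 to 0.52 and from -0.30 to 0.45. The smallest p between controls were those of Hist1h2aa (log2 0.64, SE 0.41), Hist3h2a (1.63, SE 1.25) and Hist1h1t (0.66, SE 0.63). Between IAA groups they were Hist1h1c (-0.40, SE 0.29), Hist1h2bn (0.34, SE 0.30) and Hist1h2aa (-0.47, SE 0.41). For the interaction the median was -0.01, and Hist3h2a (-2.45, SE 1.70) and Hist1h1c (-0.57, SE 0.42) followed Hist1h2aa.

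Across all IAA comparisons no gene of the function lists was called. In SYAT cells at 6 h, 5 of 12 replication-independent histones, H2afz, H2afx, H2afj, H1fx and H3f3b, had an unadjusted p under 0.05, all higher (7.93% of all genes higher), named after their values were seen. H2afx had 565 and 548 CPM in controls, and at 6 h 613 in replicate 1 and 828 in replicate 2, the library with the raised GC slope. At 8 h none of the 12 had an unadjusted p under 0.05. Their list median was 0.28 at 6 h and 0.04 at 8 h. At 6 h Slbp had 73.9 and 72.6 CPM against 76.4 and 83.6 in controls. Its mean CPM was lower, while its log2 difference after TMM scaling, which gave the library with the raised GC slope a factor of 0.855, was 0.05 (SE 0.12). At 8 h its log2 difference was -0.04 (SE 0.12). Npat had log2 differences of -0.19 (SE 0.15) and 0.02 (SE 0.15), so neither Slbp nor Npat differed detectably. Of the 29 processing and transcription genes, 1 higher and 3 lower had an unadjusted p under 0.05 at 6 h. Over all genes the shares were 7.93% higher and 8.21% lower. Casp8ap2 had 112 and 133 CPM in controls and 92.4 and 53.6 at 6 h, the 53.6 in the library with the raised GC slope. The log2 difference of Casp8ap2 was -0.60 (SE 0.18, edgeR adjusted p = 0.171) at 6 h and -0.37 (SE 0.18) at 8 h.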

How the data were processed

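Nuclear RNA-seq exon counts of 30 libraries in 15 groups of 2 were analysed. Per the sources, RNA came from washed nuclei, and libraries were made with NEBNext Ultra II Directional and sequenced as 75-base pairs. Whether poly(A) RNA was selected is not given in the sources used here, and that would weigh on mRNAs without a poly(A) tail. The authors aligned reads to mm10 with STAR and deposited raw counts per gene over GENCODE vM25 exons and introns from featureCounts; their strand and multi-mapping settings are not given. Intron counts were not used.

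Exon counts of each of 4 tables were fitted whole with edgeR 4.0.16 (R 4.3.3; filterByExpr, minimum count 10 and total 15, TMM, quasi-likelihood test, Benjamini-Hochberg over all genes tested). A gene was called at an adjusted p under 0.05 and an absolute log2 fold change over 0.5. CPM divided by exon totals, and a floor of 3 counts stands beside a 0; it covers counting error only. DESeq2 1.42.0, other scalings, no low-count filter, a replicate block and leaving out each library were alternatives. The fits were tested on simulated data. Replicates differed beyond sampling noise. Coordinates are GRCm38, the build of mm10; 55141 gene IDs matched GENCODE vM21, 54349 with the same version.

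This gene family and the lists were taken up with earlier results of these data known, although the symbol rule itself uses no values. Named genes were the 3 of smallest p per comparison, the 10 of highest mean CPM, the highest of each class, those at 0, and Slbp, Npat and Srcap. Casp8ap2, H2afx, Cenpa, Hist1h2af, Hist1h2ai, Hist1h2ba, Hist1h2aa, Hist1h1t, Hist2h2be, Hist1h1c and Hist1h4n outside their own comparison were named after their values were seen.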

Additional observations from a re-analysis of the deposited data

Results flagged for a closer look

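Of 57 histone genes with a mean of at least 1 CPM, 6 moved in opposite directions in every library under 4 h of IAA in SYAT and in CGR8 cells (10.5%), as did 7.84% of the 15622 genes at that level. The shares were close, so the count does not set the histone genes apart. The difference between the lines was not tested, since they stand in separate tables. As the log2 ratio of mean CPM in SYAT minus that in CGR8, it was 0.69 for Hist1h1c (0.19 and -0.50), -1.02 for Hist1h1t (-0.37 and 0.65), 0.68 for Hist1h2ai (0.24 and -0.44), 0.39 for Hist1h2ak (0.11 and -0.28), -1.19 for Hist1h2ba (-0.50 and 0.70) and 0.23 for Hist1h4i (0.09 and -0.14). Hist1h2ba and Hist1h1t were lower with IAA in SYAT and higher in CGR8. For Hist1h1c, Hist1h2ai and Hist1h2ak the CGR8 control with the raised GC slope held the highest CGR8 value, at 530.3, 53.0 and 112 CPM, and the part of GC content was not tested. No histone gene met the rule between LG1 and EG1 or between cdSRCAP and wtSRCAP cells.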

How the results depend on the processing

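No histone gene was called in the 15 comparisons as reported, and 136 of 155 counts under alternatives were also 0, while 19 were higher. With the replicate block, edgeR called 53 histone genes in LG1 against EG1 control (88.3%, against 0.723% of all genes) and 49 after IAA (81.7%, against 1.01%), all higher. It called 11 in CGR8 (18.6%, against 2.47%), 2 at 6 h (3.33%, against 4.29%), 2 at 8 h (3.33%, against 3.3%) and 1 in wtSRCAP cells (1.69%, against 3.2%), and 0 elsewhere. By the looser rule for 1 h of IAA the block took 25 of 60 histone genes in EG1 (6.04% of all genes). In LG1 it took 9 of 60 (4.2%), and all were higher in both fractions. At 6 and 8 h its calls were Hist1h2aa (adjusted p = 0.0168 and 0.0170) and Hist1h2ba (0.0190 and 0.0201), and in wtSRCAP cells Hist1h1c (0.0137). The labels do not say that a number marks a shared sort, day or batch, so the fit without the block was reported. Replicate differences correlated between groups at 0.476 to 0.668 in the sorted table, 0.38 to 0.529 in the rescue table, -0.0138 to 0.639 in the time course and 0.158 in CGR8. Without the low-count filter the counts were 45 and 41 in LG1 against EG1 (control and IAA; 0.19% and 0.256% of all genes), 11 in CGR8 (1.26%), 6 at 6 h (2.47%) and 2 at 8 h (1.25%). DESeq2 called 4 in CGR8, 3 at 6 h and 2 at 8 h, and exon totals without TMM 1 at 6 h (0.505%). Leaving out 1 library gave 0 to 22 in CGR8 and 0 to 22 at 6 h, and 0 in the other comparisons; the lone library was assumed to vary like the other groups. The causes of these moves were not tested.

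Medians ranged from 0.55 to 1.5 (control) and 0.42 to 1.33 (IAA) for LG1 against EG1 and stayed above 0. All other comparisons had medians of at most 0.23 in size as reported, and theirs were the 25 of 155 alternative medians with the other sign. Exon totals in place of TMM shifted the median of all genes by -0.18 for IAA in wtSRCAP cells, -0.17 at 6 h, 0.15 between cdSRCAP and wtSRCAP with IAA and 0.11 in their interaction. With 2 libraries a group, common biological coefficients of variation were 0.20 to 0.30, and levels near 1 CPM limit Hist2h2be, Hist3h2a and Hist2h3c2.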
